A study of Mus musculus with 25 samples.

Results

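Amino acid transporters are described here in the mouse *soleus*, with *Slc38a1* at their centre. They are 10 genes out of 52636 in the count table: *Slc38a1*, *Slc38a2*, *Slc38a3*, *Slc38a4*, *Slc7a1*, *Slc7a2*, *Slc7a5*, *Slc7a8*, *Slc3a2* and *Slc1a5*. They were taken by symbol, and all 10 were among the 16340 genes with enough counts to be tested. *Slc38a1* was selected on its mRNA level in mD3AKO against WT mice, the genotype contrast of these libraries, so the members' values of that contrast are given below as a description and without a p-value. The other members were added as genes of the same transport families, with earlier results of these data known, which limits what their counts below can show.

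RNA was sequenced from a *soleus* muscle of each of 25 C57BL/6 mice aged 12 weeks. The mD3AKO mice carried *Dnmt3a* flox/flox alleles and a transgene in which the muscle creatine kinase promoter drives Cre, and the WT mice carried the same floxed alleles without Cre. At rest, 5 WT and 7 mD3AKO mice were sampled after a sham treadmill session, and 7 WT and 6 mD3AKO mice were sampled 60 minutes after a treadmill bout of 30 minutes. Females and males were present in every group (12 and 13 mice in all).

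The promoter of the transgene is active in muscle fibers and heart, and the state of *Dnmt3a* in the other cells of the muscle was not tested here. *Dnmt3a* lay between 93.4 and 131 CPM (counts scaled to library size) in WT libraries and between 34.5 and 53.9 CPM in mD3AKO libraries. The totals ranged from 22671457 to 37431801 counts, with a median of 32189360. The library of mouse 15, a rested mD3AKO male, had the lowest total and held 39.5% of its counts on its 3 most abundant genes, against at most 20.3% in the other libraries. Whole muscle was sequenced, so fewer cells of a type and less RNA per cell cannot be told apart in any of the values below.

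Amino acids cross the plasma membrane through families of carriers with overlapping substrates. *Slc38a1*, *Slc38a2* and *Slc38a4* encode the sodium-coupled carriers SNAT1, SNAT2 and SNAT4 (system A), which take up small neutral amino acids such as alanine and glutamine, and *Slc38a3* encodes SNAT3 (system N), which carries glutamine, histidine and asparagine. *Slc7a1* and *Slc7a2* encode the cationic carriers CAT1 and CAT2 for arginine and lysine, *Slc7a5* and *Slc7a8* encode the exchangers LAT1 and LAT2, which work only as partners of the heavy chain 4F2hc encoded by *Slc3a2*, and *Slc1a5* encodes the neutral amino acid exchanger ASCT2. In muscle these carriers supply amino acids for protein synthesis and move the glutamine and alanine that the tissue releases, and SNAT2 is known to be induced by amino acid shortage and by hypertonic stress.

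*Slc38a1* (ENSMUSG00000023169) lies on the reverse strand of chr15:96571418-96642913 of mm10, beside *Slc38a2* (ENSMUSG00000022462, chr15:96687394-96699698) and *Slc38a4* (ENSMUSG00000022464, chr15:96994823-97055956), both also on the reverse strand. *Slc38a3* (ENSMUSG00000010064) lies on the reverse strand of chr9:107650634-107669530 and *Slc1a5* (ENSMUSG00000001918) on the forward strand of chr7:16781340-16798274. *Slc7a1* (ENSMUSG00000041313) was counted on the reverse strand of chr5:148327410-148399904 and *Slc7a2* (ENSMUSG00000031596) on the forward strand of chr8:40862396-40922308. *Slc7a5* (ENSMUSG00000040010) lies on the reverse strand of chr8:121881150-121907694, *Slc7a8* (ENSMUSG00000022180) on that of chr14:54722216-54781886 and *Slc3a2* (ENSMUSG00000010095) on that of chr19:8706882-8723369.

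Because *Slc38a1*, *Slc38a2* and *Slc38a4* are related copies side by side, their coding sequences in the GENCODE M21 transcripts were compared to see how far reads of 1 gene could be taken for another. Over the aligned bases, *Slc38a1* was 63.4% identical to *Slc38a2* and 65.5% identical to *Slc38a4*, and *Slc38a2* was 67.9% identical to *Slc38a4*. The stretch of 75 bases, the length of 1 read, with the most identical bases was found between *Slc38a1* (coding bases 232 to 306) and *Slc38a4* (coding bases 244 to 318), where 9 bases differed. It is shown because it is where the reads of these neighbours are hardest to separate, with the differing bases in capitals.
Slc38a1: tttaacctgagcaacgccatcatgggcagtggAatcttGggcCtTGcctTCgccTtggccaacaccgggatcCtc
Slc38a4: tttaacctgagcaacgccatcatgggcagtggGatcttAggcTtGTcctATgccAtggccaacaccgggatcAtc
The longest identical run between *Slc38a1* and *Slc38a4* was 32 bases, and between *Slc38a1* and *Slc38a2* it was 17 bases. Of the words of 31 bases in the transcripts of *Slc38a1*, 6.59% also occurred in another gene, most of them in *4632432E15Rik* (929 of 1122 shared words). This share was 4.15% for *Slc3a2*, 2.03% for *Slc7a2* and at most 0.695% for the other 7 members. Exons of 1 member overlapped those of another gene, *Slc7a2* with *Gm26584* on the opposite strand over 635 bases, and *Gm26584* had at most 17 counts in any library.

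Promoter sequences of RefSeq (build GRCm38.p6) were found for 5 of the 10 members, with 8 start sites in all. The 250 bases before the start, or before the first of 2 for *Slc7a1*, are shown for the 4 members whose mRNA rose after exercise, as described below, to show what sequence these genes do and do not have in common. Each was searched on both strands for TGACG (a cAMP response element in short form), TGATGNAA (the core of an amino acid response element), CACGTG (an E-box), TGANTCA (an AP-1 site), CCAAT and TGTTCT (one arm of a glucocorticoid response element). Capitals mark every match.
Slc38a2, chr15:96699729-96699978, reverse strand: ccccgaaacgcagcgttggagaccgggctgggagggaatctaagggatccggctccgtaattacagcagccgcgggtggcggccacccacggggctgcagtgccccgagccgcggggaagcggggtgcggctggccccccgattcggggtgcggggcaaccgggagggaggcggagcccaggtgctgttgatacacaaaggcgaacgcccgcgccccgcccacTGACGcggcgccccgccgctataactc
Slc7a1, chr5:148399905-148400154, reverse strand: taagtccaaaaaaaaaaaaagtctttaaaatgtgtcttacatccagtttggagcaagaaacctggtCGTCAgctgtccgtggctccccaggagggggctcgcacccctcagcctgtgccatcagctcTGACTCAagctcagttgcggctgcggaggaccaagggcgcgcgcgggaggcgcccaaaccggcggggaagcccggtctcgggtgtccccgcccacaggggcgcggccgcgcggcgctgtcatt
Slc7a8, chr14:54781887-54782136, reverse strand: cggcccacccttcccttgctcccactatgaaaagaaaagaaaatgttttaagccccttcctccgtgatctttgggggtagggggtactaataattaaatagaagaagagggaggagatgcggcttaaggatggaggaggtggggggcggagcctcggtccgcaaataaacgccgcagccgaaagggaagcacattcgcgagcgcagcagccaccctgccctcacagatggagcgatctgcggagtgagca
Slc3a2, chr19:8713898-8714147, reverse strand: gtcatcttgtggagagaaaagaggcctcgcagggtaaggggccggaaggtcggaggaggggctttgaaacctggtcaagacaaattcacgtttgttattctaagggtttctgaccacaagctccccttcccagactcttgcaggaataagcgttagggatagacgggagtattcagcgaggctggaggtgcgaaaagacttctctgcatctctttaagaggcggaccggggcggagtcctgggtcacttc
In *Slc38a2*, TGACG lay 27 to 23 bases before the start. In *Slc7a1*, its reverse complement lay 184 to 180 bases before the start, and TGACTCA, a match to TGANTCA, lay 123 to 117 bases before it. Before its second start (chr5:148392816-148393065, not shown), TGTTCT lay at 75 to 70 bases. The windows of *Slc7a8* and *Slc3a2* held no match to the 6 motifs, and the *Slc3a2* start used here lies inside the gene as it was counted. TGACG was found in 17.8% of all 32851 promoters of this length, TGANTCA in 6.75%, TGATGNAA in 3.45%, CACGTG in 6.02%, CCAAT in 33.8% and TGTTCT in 16.1%. TGATGNAA and CACGTG matched none of the 8 windows of members. Sequence after the starts or farther before them was not searched, so these genes may hold either motif elsewhere. The window of *Slc38a2* was 72% G or C with 30 CpG, against a median of 52.4% G or C over all promoters. The windows of *Slc38a4*, whose mRNA was not called after exercise, were 52.8%, 46% and 47.2% G or C with 3, 5 and 5 CpG. They held matches too, with TGACG at 110 to 106 bases before the second start, CCAAT before the first and second starts and TGTTCT before the third. TGACG lay before starts of *Slc38a2* and *Slc7a1*, which rose, and of *Slc38a4*, which was not called. The part of these motifs in the changes after exercise was not tested.

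To place the members among each other, CPM were divided by the exon length of each gene, as the count table gives it, in kilobases. *Slc38a2* had the highest level per length, 34.3 ± 16.9 CPM per kb (SD, n = 25), followed by *Slc38a3* at 19.5 ± 3.31, *Slc38a4* at 9.51 ± 2.01, *Slc1a5* at 7.10 ± 3.85, *Slc3a2* at 5.87 ± 1.16 and *Slc7a2* at 5.06 ± 0.664 CPM per kb. The other 4 lay lower, with *Slc7a5* at 1.27 ± 0.297, *Slc7a1* at 1.18 ± 0.313, *Slc38a1* at 1.02 ± 0.483 and *Slc7a8* at 0.725 ± 0.186 CPM per kb. Over all 25 mice, neighbours in this order overlapped except for *Slc38a3* above *Slc38a4* and *Slc7a2* above *Slc7a5*. The order pools rested and exercised mice, and some places moved by group. *Slc38a2* and *Slc38a3* had means of 20.75 and 17.85 CPM per kb at rest, and of 46.88 and 21.06 after exercise. At rest *Slc3a2* (4.88) was below *Slc7a2* (5.14). In exercised mD3AKO mice *Slc3a2* (7.08) was above *Slc1a5* (5.86), and *Slc7a1* (1.58) was above *Slc7a5* (1.34). The glutamine carrier *Slc38a3* and the alanine and glutamine carrier *Slc38a2* were thus the most abundant members, while *Slc38a1* was among the least abundant. The place of *Slc38a1* depended on genotype, since its mean of 0.616 CPM per kb in WT mice was below the 0.754 of *Slc7a8*, while its mean of 1.40 in mD3AKO mice was above the 1.27 of *Slc7a1* and the 1.21 of *Slc7a5*, and these ranges overlapped. The least abundant members rested on few reads, since *Slc7a8* had 29 to 177 and *Slc7a5* 40 to 224 counts per library, against 1454 to 10432 for *Slc38a2*. Counting error alone is 18.6% at the lowest count of *Slc7a8* and 15.8% at that of *Slc7a5*.

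Within the system A and N carriers, *Slc38a1* was higher in mD3AKO than in WT muscle. Its CPM in the 5 rested WT mice were 3.68, 4.15, 4.75, 5.20 and 6.14, and exercised WT mice ranged from 3.51 to 7.43 with a median of 5.45. Rested mD3AKO mice ranged from 6.79 to 11.7 CPM with a median of 10.0, and exercised mD3AKO mice from 10.1 to 17.0 CPM with a median of 14.2. The genotypes did not overlap at rest or after exercise, where 0.165% and 0.159% of all genes were likewise separated with mD3AKO mice higher. With both states pooled, 12 of the 13 mD3AKO mice lay above every WT mouse, and mouse 21, a rested mD3AKO female at 6.79 CPM, lay below the highest WT mouse. The log2 fold change between genotypes was 1.20 with an SE of 0.125 (2.29-fold), 1.04 with an SE of 0.184 at rest and 1.35 with an SE of 0.169 after exercise. Since this contrast chose the gene, these values describe it and carry no test.

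None of the other 9 members was among the 44 genes called between the genotypes, which make up 0.269% of the genes tested. The largest of their log2 fold changes in size was -0.31 with an SE of 0.262 for *Slc1a5*, which ran from -0.52 without mouse 21 to -0.20 without mouse 25. The 6 adipocyte markers named below had a median of -0.67 between the genotypes, and 0 of them were called. Their part in the value of *Slc1a5* was not tested. *Slc38a4* had a value of 0.29 with an SE of 0.102 and *Slc7a1* of 0.27 with an SE of 0.0859, and the remaining 6 lay between -0.10 and 0.14. *Slc38a4* is imprinted in mice and expressed from the paternal allele in several tissues. Its CPM had a median of 31.9 in WT mice (range 23.5 to 46.0) and 39.8 in mD3AKO mice (range 33.6 to 54.9), and 3 of 13 mD3AKO mice lay above every WT mouse.

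The protein-coding neighbours of *Slc38a1* on chromosome 15 were examined next, 3 on either side. *Scaf11*, *Arid2* and *Ano6* lie 110575, 166426 and 596667 bases away on one side, and *Slc38a2*, *Slc38a4* and *Amigo2* lie 44479, 351907 and 601212 bases away on the other, by the gene ends of GENCODE M21, which differ slightly from those of the count table given above. Their log2 fold changes between genotypes lay between -0.11 (*Amigo2*) and 0.29 (*Slc38a4*), against 1.20 for *Slc38a1*. The nearest neighbour, *Slc38a2*, had a genotype log2 fold change of 0.21 with an SE of 0.218 at rest and of 0.07 with an SE of 0.205 after exercise. After exercise the order was another one, with log2 fold changes of 1.20 for *Slc38a2* and 0.65 for *Amigo2*, which encodes an adhesion protein of neurons and endothelial cells (adjusted p of edgeR = 0.00044), and 0.16 for *Arid2*, a subunit of a chromatin remodelling complex (adjusted p of edgeR = 0.037).

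**Figure D1:**
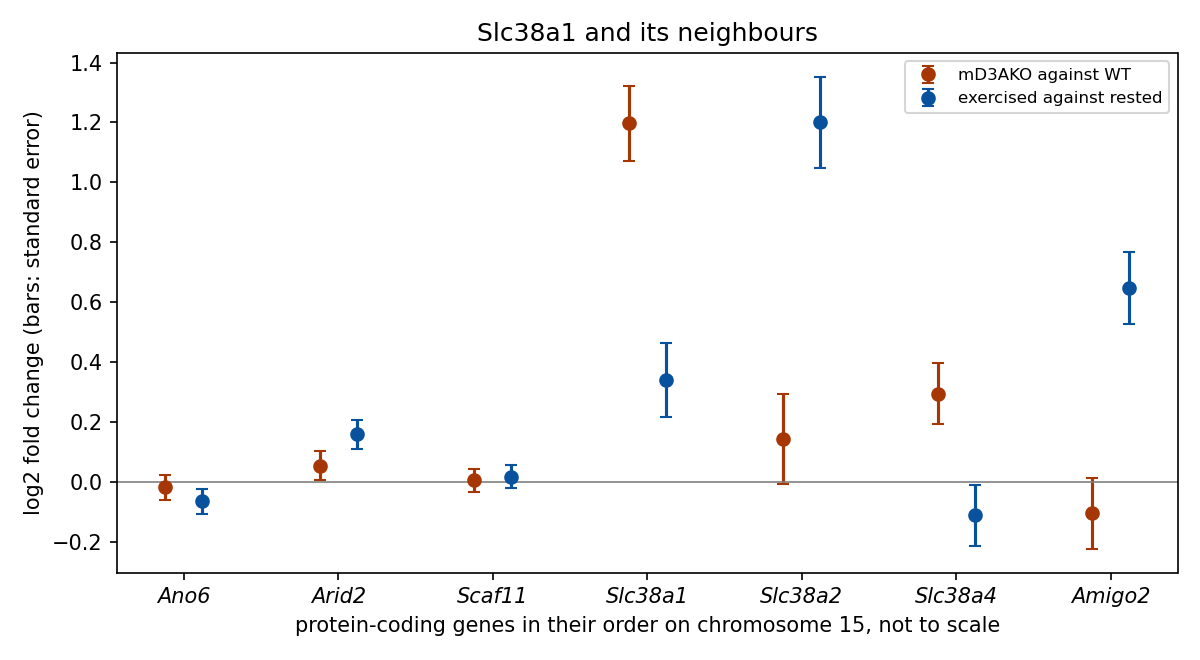
Log2 fold change (y axis, bars are standard errors) of 7 neighbouring protein-coding genes in their order on chromosome 15 (x axis, not to scale), for mD3AKO against WT and for exercised against rested mice. *Slc38a1* stands at 1.20 for genotype while *Slc38a2* beside it stands at 1.20 for exercise; the genotype values are a description.

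After exercise 4 of the 10 members rose and 0 fell, and the 4 were *Slc38a2*, *Slc7a1*, *Slc7a8* and *Slc3a2*. This count stands beside 10.4% of all genes tested that were called for exercise (5.7% higher and 4.69% lower). The median log2 fold change of the members was 0.34, against -0.00088 over all genes tested. Within WT mice alone, *Slc38a2* and *Slc3a2* were called (3.59% of all genes), and within mD3AKO mice *Slc38a2*, *Slc7a1* and *Slc3a2* (6.02% of all genes). P-values for exercise given below are from edgeR and adjusted over all genes of the fit, which are 16340 with all mice.

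**Figure D2:**
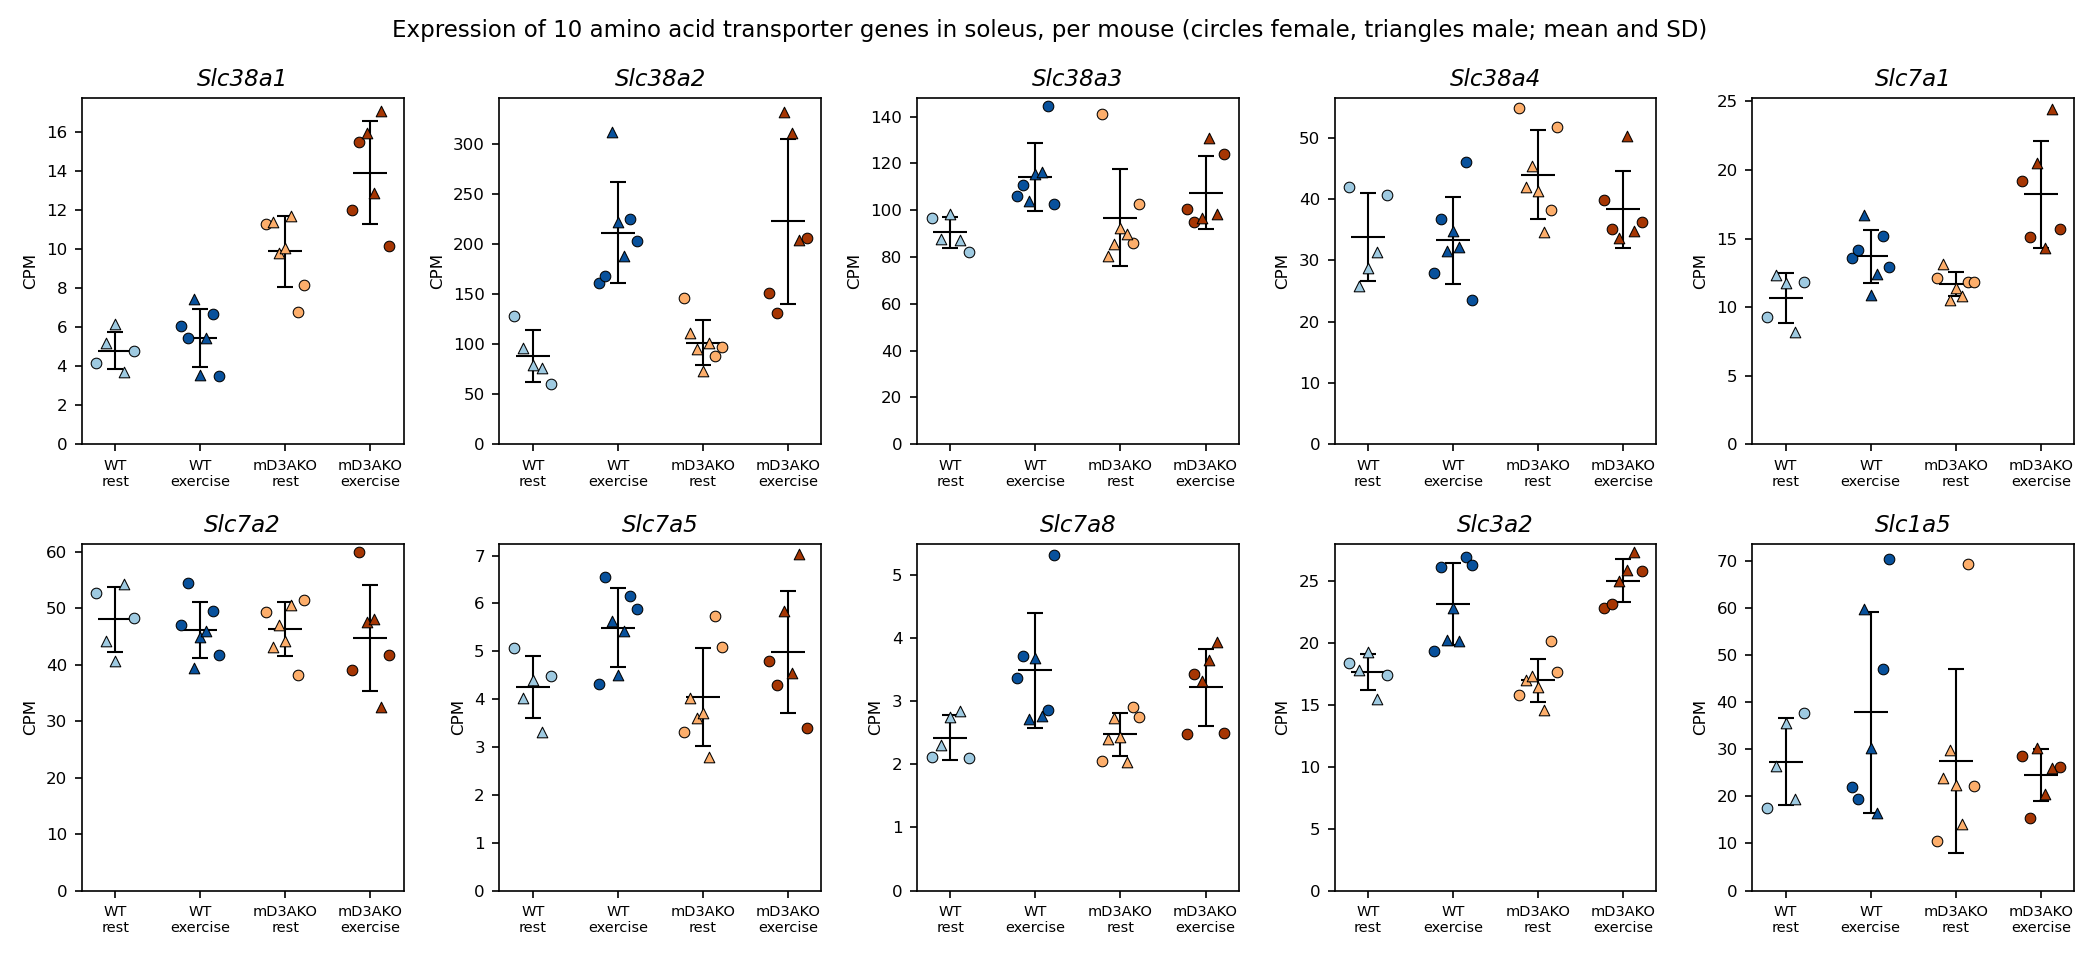
CPM (y axes, starting at 0) of each of the 10 transporter genes in each mouse, by group (x axes), with circles for females, triangles for males, and the mean and SD in black. *Slc38a1* separates the genotypes, with all rested mD3AKO mice at 6.79 CPM or more and all rested WT mice at 6.14 or less, while *Slc38a2* and *Slc3a2* separate most exercised from rested mice.

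*Slc38a2* changed most. The rested WT mice had 60.0, 75.8, 79.2, 96.4 and 128 CPM, and exercised WT mice ranged from 161 to 312 with a median of 204. In mD3AKO mice it ranged from 73.1 to 146 CPM with a median of 96.9 at rest, and from 131 to 333 CPM with a median of 206 after exercise. Every exercised WT mouse lay above every rested WT mouse, as was the case for 2.06% of all genes, and so did 5 of 6 exercised mD3AKO mice within their genotype. The log2 fold change was 1.20 with an SE of 0.153 (2.30-fold, adjusted p = 2.94e-06), with 1.27 in WT and 1.13 in mD3AKO mice. In females alone it was not called (0.78, adjusted p = 0.068 by edgeR).

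Among the other SLC38 members, *Slc38a3* did not pass the test at a log2 fold change of 0.24 with an SE of 0.0806 (adjusted p = 0.0544). Its CPM were 82.3, 87.3, 87.9, 96.8 and 98.3 in the rested WT mice and 103 to 144 (median 111) in the exercised WT mice, which did not overlap. In WT mice 2.06% of all genes were likewise separated with exercised mice higher. In mD3AKO mice it overlapped, with 80.2 to 141 CPM (median 90.0) at rest and 94.9 to 131 CPM (median 99.4) after exercise. Without mouse 2, a rested mD3AKO female at 141 CPM, the log2 fold change was 0.30 and the adjusted p 0.0022. *Slc38a3* was also called with DESeq2 and in males alone, but had 0.16 with an adjusted p of 0.81 in females alone and 0.21 with an adjusted p of 0.12 without mouse 17. *Slc38a1* had a log2 fold change of 0.34 with an SE of 0.124 (adjusted p = 0.0822) and was called with a term for sex and without mouse 16, 23 or 25. *Slc38a4* had one of -0.11 with an SE of 0.102 (adjusted p = 0.616).

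Per length, *Slc38a2* outweighed its neighbour *Slc38a1* in every mouse, by 34.7 ± 13.5 times (SD, n = 5) in rested WT mice and 74.9 ± 25.3 times (SD, n = 7) in exercised WT mice. In mD3AKO mice the ratio was 19.0 ± 3.96 (SD, n = 7) at rest and 29.8 ± 11.3 (SD, n = 6) after exercise. The part of these ratios that comes from genotype follows from the choice of *Slc38a1* and is not a separate result.

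Of the cationic carriers, *Slc7a1* rose and *Slc7a2* was not called. *Slc7a1* had 8.18, 9.25, 11.7, 11.9 and 12.3 CPM in the rested WT mice and 10.9 to 16.7 CPM (median 13.6) in the exercised WT mice. In mD3AKO mice it ranged from 10.5 to 13.1 CPM (median 11.8) at rest and from 14.3 to 24.4 CPM (median 17.4) after exercise. The groups overlapped in WT mice by 1 exercised mouse and did not overlap in mD3AKO mice, as was the case for 1.55% of all genes. Its log2 fold change was 0.50 with an SE of 0.0862 (1.41-fold, adjusted p = 0.000188), with 0.36 in WT mice (adjusted p = 0.136) and 0.64 in mD3AKO mice (adjusted p = 0.000784). *Slc7a2* lay between 38.2 and 54.2 CPM in rested and between 32.4 and 59.9 CPM in exercised mice, a log2 fold change of -0.05 with an SE of 0.0775 (adjusted p = 0.794).

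The heavy chain *Slc3a2* had the smallest error of the 4 that rose. The rested WT mice had 15.4, 17.4, 17.8, 18.3 and 19.2 CPM, and exercised WT mice 19.3 to 26.9 CPM (median 22.8). In mD3AKO mice it ranged from 14.6 to 20.1 CPM (median 17.0) at rest and from 22.8 to 27.3 CPM (median 25.4) after exercise. Exercised and rested mice did not overlap within either genotype. Of all genes, 2.06% in WT and 1.55% in mD3AKO mice were likewise separated with exercised mice higher. Over both genotypes 12 of 13 exercised mice lay above every rested mouse. The log2 fold change was 0.47 with an SE of 0.0607 (1.39-fold, adjusted p = 3.2e-06).

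Of its light chains, *Slc7a8* (LAT2) rose by a log2 fold change of 0.45 with an SE of 0.11 (1.36-fold, adjusted p = 0.00703). It had 2.10, 2.12, 2.30, 2.74 and 2.84 CPM in the rested WT mice, 2.72 to 5.32 CPM (median 3.37) in the exercised WT mice, 2.03 to 2.90 CPM (median 2.43) in rested mD3AKO mice and 2.47 to 3.94 CPM (median 3.37) in exercised mD3AKO mice. All 13 exercised mice lay above the median of the rested mice, and 8 of them above every rested mouse. Scaled by library totals without TMM factors, *Slc7a8* was not called (log2 fold change 0.42, adjusted p = 0.068), nor was it in females alone or in males alone.

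*Slc7a5* (LAT1), the leucine carrier of dividing cells, did not pass the test, with a log2 fold change of 0.33 and an SE of 0.117 (adjusted p = 0.0757), although it was called with DESeq2 and in males alone. It had 2.80 to 5.73 CPM (median 4.03) in rested and 3.40 to 7.03 CPM (median 5.42) in exercised mice. Per length, the heavy chain went from 4.88 ± 0.447 (SD, n = 12) at rest to 6.79 ± 0.780 CPM per kb (SD, n = 13) after exercise. Among the partners of the heavy chain that are no members, *Slc7a6* (y+LAT2) went from 1.96 ± 0.258 to 2.78 ± 0.207 CPM per kb and rose by a log2 fold change of 0.49 (adjusted p = 5.2e-06). The partners *Slc7a7*, *Slc7a10* and *Slc7a11* were not called (adjusted p = 0.4, 0.92 and 0.97). By its mean per length, *Slc7a6* was above *Slc7a5* and *Slc7a8* in both states, the latter 2 being at 1.11 ± 0.232 and 0.607 ± 0.082 CPM per kb at rest.

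*Slc1a5* (ASCT2) had the largest coefficient of variation of the members in 3 of the 4 groups (33.6% to 71.3%, against 22.7% in exercised mD3AKO mice, where *Slc38a2* had 37.0%) and was not called for exercise (log2 fold change 0.15 with an SE of 0.263, adjusted p = 0.837). The rested WT mice had 17.5, 19.5, 26.4, 35.7 and 37.7 CPM, exercised WT mice 16.4 to 70.4 CPM (median 30.1), rested mD3AKO mice 10.5 to 69.4 CPM (median 22.5) and exercised mD3AKO mice 15.3 to 30.2 CPM (median 26.1). All 4 groups overlapped. The log2 fold change for exercise ran from 0.04 without mouse 25, an exercised WT female at 70.4 CPM, to 0.36 without mouse 21, a rested mD3AKO female at 69.4 CPM, and it was not called in either case.

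The level of *Slc1a5* varied with the summed markers of fat cells. The summed CPM of 6 adipocyte markers (*Adipoq*, *Plin1*, *Cfd*, *Lep*, *Fabp4* and *Cidec*) ranged from 221 to 843 in rested and from 262 to 888 in exercised mice, and 0 of the 6 were called for exercise. *Slc1a5* and this sum had a Pearson r of 0.952 and a Spearman rho of 0.916 on the log2 scale over 25 mice. The adjusted p of both was 0.00033 over 100 relations of 10 members with 10 marker lists, by 2-sided permutation tests of 100000 resamples, and comes from the smallest p these can give. The r was 0.975 in the 12 females and 0.919 in the 13 males, and 0.924 without the 2 mice farthest from the median of the sum. The 4 mice with the most *Slc1a5*, mice 25, 21, 9 and 22, had sums of 888, 843, 756 and 768, and mouse 2 had the least of both (10.5 CPM and a sum of 221). Markers of Schwann cells and nerve summed to 722, 467 and 421 CPM in mice 21, 22 and 25, but to 95.8 CPM in mouse 9. Their r with *Slc1a5* was 0.615 and rho 0.356 (adjusted p = 0.02 and 0.36 by the same permutation tests), with an r of 0.878 in females, of 0.0388 in males and of 0.432 without the 2 farthest mice. Whether the sexes differ in this relation was not tested. Of the 100 relations, 9 had an adjusted p of r under 0.05. Besides these 2 they were *Slc38a2* with endothelium and 6 members with the satellite cell list, whose sums moved with exercise as given below. The permutations shuffled all 25 mice without regard to group. Where a member and a list both moved with exercise, that shared change enters the p-value. The part that fat cells or nerve in the dissected muscle have in the level of *Slc1a5* was not tested.

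**Figure D3:**
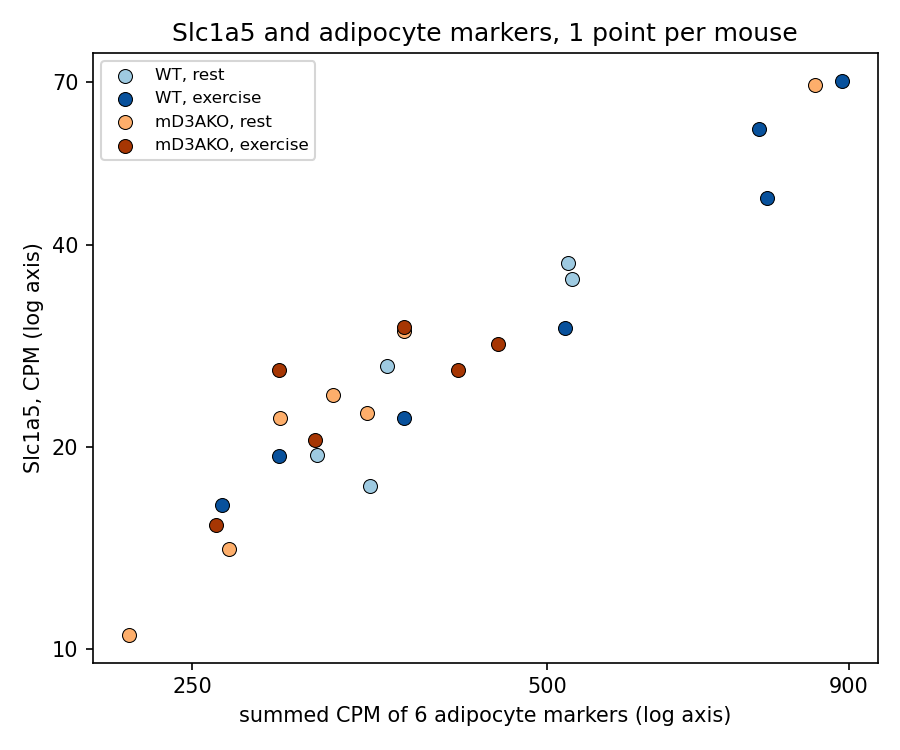
*Slc1a5* (y axis, CPM, log axis) against the summed CPM of 6 adipocyte markers (x axis, log axis), with 1 point per mouse coloured by group. The points rise together from mouse 2 (10.5 CPM, sum 221) to mouse 25 (70.4 CPM, sum 888), with mice of all 4 groups along the way.

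Whether the response to exercise differed between the genotypes was tested with the interaction. None of the 10 members was called (0 of all 16340 genes), and none had an unadjusted p under 0.05 with edgeR or with DESeq2. Over all genes, 403 had an unadjusted p under 0.05 with edgeR (2.47%). The largest values were -0.64 with an SE of 0.528 for *Slc1a5*, 0.31 with an SE of 0.246 for *Slc38a1* and 0.28 with an SE of 0.171 for *Slc7a1* (adjusted p = 1.0 for each by edgeR). The value of *Slc1a5* was -0.23 without mouse 21, smaller in size than that of *Slc38a1*. Leaving out 1 mouse also lowered the value of *Slc38a1* to 0.20 (mouse 13) and that of *Slc7a1* to 0.18 (mouse 19). The 6 adipocyte markers had a median interaction value of -0.83, and 0 of them were called. Their part in the value of *Slc1a5* was not tested. For *Slc38a1*, the log2 fold change after exercise was 0.18 with an SE of 0.183 in WT and 0.50 with an SE of 0.165 in mD3AKO mice.

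**Figure D4:**
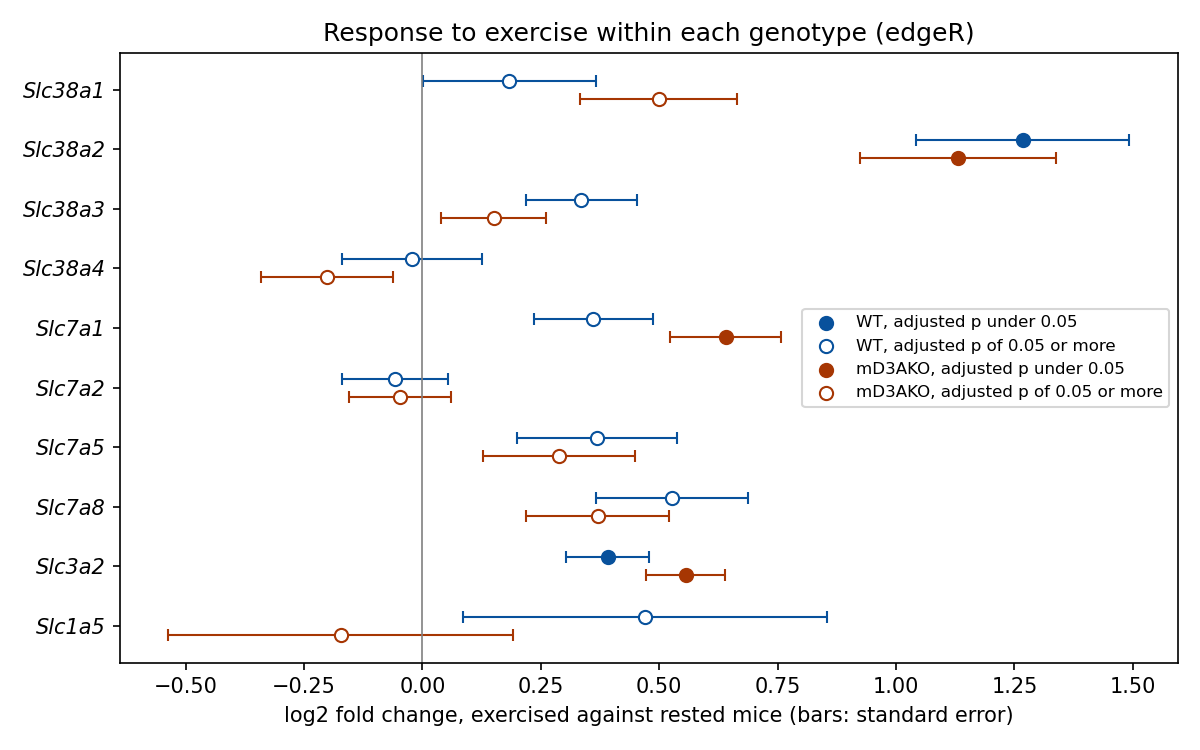
Log2 fold change of exercised against rested mice (x axis, bars are standard errors) for each of the 10 transporter genes (y axis) in WT and in mD3AKO mice, with filled points for genes called by edgeR within that genotype. *Slc38a2* stands apart at 1.27 and 1.13, *Slc3a2* is filled in both genotypes and *Slc7a1* in mD3AKO mice.

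Sex was compared over both genotypes and both states. None of the 10 members was called between males and females, where 8.65% of all genes were called, and none had an unadjusted p under 0.05 with edgeR or DESeq2, against 23.9% of all genes with edgeR (lowest adjusted p of edgeR = 0.271, *Slc38a4*). The response of *Slc38a2* to exercise was 1.54 with an SE of 0.147 in males alone and 0.78 with an SE of 0.205 in females alone on the log2 scale. In males the 6 exercised mice had 188 to 333 CPM and the 7 rested mice 73.1 to 111 CPM, without overlap, as was the case for 2.39% of all genes. In females the 7 exercised mice had 131 to 226 CPM and the 5 rested mice 60.0 to 146 CPM, with mouse 2 at 146 and mouse 1 at 128 CPM highest among the rested. The overlap came from the females numbered 1 to 6, whose 2 rested mice had 128 and 146 CPM and whose 4 exercised mice had 131 to 169 CPM (median 156). In the females numbered 20 to 25 the 3 rested mice had 60.0 to 96.9 CPM and the 3 exercised mice 204 to 226 CPM, a separation that 10.1% of all genes shared. The females were split by number after their values were seen, and the split carries no test. All males are in the run from 7 to 19, so that sex and run cannot be told apart in the difference between the sexes. This difference was 0.76 with an SE of 0.260 (unadjusted p = 0.0081, adjusted p = 1.00 by edgeR), so it was not called, and 9 of all genes (0.0551%) were. The log2 fold change of *Slc7a5* for exercise was 0.54 in males alone and 0.04 in females alone, and that of *Slc38a4* was 0.07 in males and -0.35 in females. These differed by 0.51 with an SE of 0.204 (unadjusted p = 0.021) and by 0.42 with an SE of 0.188 (unadjusted p = 0.038), both with an adjusted p of 1.00 by edgeR, where 3.34% of all genes had an unadjusted p under 0.05. Markers of slow fibers were lower in males (6 of 6 called) and markers of fast fibers higher (5 of 8 called), and their part in this value was not tested.

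Beside the members, 44 other amino acid transporters were listed, of which 30 had enough counts to be tested. After exercise 2 rose and 2 fell, with a list median of -0.08, and this share is close to the 10.4% of all genes called. *Slc7a6* and *Slc43a3* (a carrier of purine bases related to the amino acid carriers of its family) rose by log2 fold changes of 0.49 and 0.44 (adjusted p = 5.2e-06 and 5.9e-06), and *Slc6a6*, the taurine transporter, fell by 0.39 (adjusted p = 0.00055). *Slc6a7*, the proline transporter, fell by 0.56 from a low level of 0.812 CPM at rest (adjusted p = 0.044), and lost its call without any 1 of 15 mice. *Slc6a6* was the most abundant of these, with a mean of 158.6 CPM in the 12 rested mice (SD 25.2) and of 120.1 CPM in the 13 exercised mice (SD 13.4). None of the 30 was called between the genotypes.

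*Slc38a2* is a known target of *Atf4* in the response to amino acid shortage, so 26 genes of that response were looked at, 25 of them tested. After exercise 4 rose and 2 fell, with a list median of 0.03, beside 10.4% of all genes called. *Ddit4*, which restrains the growth kinase mTORC1, rose by a log2 fold change of 2.48 (5.58-fold, adjusted p = 1.4e-10), from 4.08 to 17.6 CPM at rest to 35.4 to 69.1 CPM after exercise. *Cebpb*, *Atf4* and *Cebpg*, all transcription factors of this response, rose by 0.64, 0.32 and 0.22 (adjusted p = 0.00015, 0.00044 and 0.0025), although *Atf4* and *Cebpg* were not called in females alone, nor *Cebpg* with library totals. *Chac1*, which degrades glutathione, fell by 0.92 (adjusted p = 0.018) and *Ddit3* (CHOP) fell by 0.35 (adjusted p = 0.025), but without mouse 1, a rested WT female, neither was called (adjusted p = 0.078 at -0.59 for *Chac1* and 0.051 for *Ddit3*). *Chac1* was called in neither sex alone, and *Ddit3* not in males alone. Other textbook targets of *Atf4* did not pass, with 0.20 for *Asns*, -0.12 for *Trib3* and -0.17 for *Sesn2* (adjusted p = 0.66, 0.64 and 0.41). These are mRNA values, and the activity of the ATF4 protein was not measured. The part of this response in the change of *Slc38a2* was not tested.

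Of 20 genes for mTORC1, its activator *Rheb* and the sensing of leucine and arginine that acts on it, 5 rose after exercise and 0 fell, beside 5.7% of all genes that rose and 4.69% that fell. They were *Flcn* (0.52, adjusted p = 2e-06), *Castor1* (0.49, adjusted p = 0.0019), *Fnip2* (0.48, adjusted p = 0.001), *Rheb* (0.21, adjusted p = 0.00075) and *Rragc* (0.14, adjusted p = 0.022). *Castor1* was not called in males alone (log2 fold change 0.28), *Fnip2* in females alone, *Rheb* in females alone, and *Castor1* and *Rheb* with library totals. *Rragc* was not called in either sex alone, with library totals or without the filter on low counts. *Flcn* and *Fnip2* form the complex that acts on the Rag GTPase encoded by *Rragc*, and *Castor1* binds arginine. Of 17 enzymes of glutamine, alanine and branched-chain amino acids, *Glul*, the glutamine synthetase, had a mean of 184.8 CPM in the 12 rested mice (SD 25.9) and of 303.3 CPM in the 13 exercised mice (SD 50.9), a log2 fold change of 0.72 (adjusted p = 2.5e-06). The other 16 were not called in either direction.

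The genes whose log2 CPM followed *Slc38a2* most closely over the 25 mice were *Sdc4* (Pearson r = 0.938), a heparan sulfate proteoglycan, *Dnajb4* (0.937), a heat shock cochaperone, and the stress transcription factors and regulators *Nfil3* (0.935), *Atf3* (0.920) and *Btg2* (0.912). These had log2 fold changes for exercise between 0.90 and 4.30. For *Slc38a1* they were *Gm44289* (0.856), *Gm31520* (0.844), *Sim2* (0.826), a basic helix-loop-helix transcription factor, *Mttp* (0.824), which loads lipid onto apolipoprotein B, and *Rab17* (0.819), a small GTPase of epithelial trafficking. Their log2 fold changes between genotypes lay between 0.66 and 8.38, the contrast by which *Slc38a1* was chosen. These values are descriptions, since mice of a group share genotype and exercise.

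Markers of other cells of the muscle also moved with exercise. Of 8 endothelial markers, 6 fell and 1 (*Esam*) rose, beside 4.69% and 5.7% of all genes, and their summed CPM were 413 to 554 (median 468) in rested and 352 to 455 (median 394) in exercised mice. In females alone, *Kdr* was the 1 endothelial marker still called lower, while 4 were in males alone and 4 with library totals, and *Esam* was called in neither of the latter. *Cdh5* also lost its call without mouse 13. *Cnn1*, 1 of 6 smooth muscle and pericyte markers, rose (0.38, adjusted p = 0.029 by edgeR), but lost its call without any 1 of 5 mice and in 4 other settings, each sex alone included. Of 6 satellite cell markers, *Pax7* and *Myf5* fell and *Sdc4* rose, with *Myf5* not called in females alone. Between the genotypes *Pax7* had a value of 0.48 with an SE of 0.105 (adjusted p = 0.038 by edgeR). This call was lost without any 1 of 17 mice, in each sex alone and with library totals. The sum of that list went from 77.1 to 125 CPM at rest to 116 to 183 CPM after exercise, and without *Sdc4* it was 24.3 to 43.8 CPM at rest and 24.4 to 39.6 CPM after exercise. None of the endothelial or satellite cell markers had a median count of 0. The part of these cells in the members' changes was not tested.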

How the data were processed

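RNA was extracted from a *soleus* of each mouse, depleted of ribosomal RNA and sequenced as strand-specific 75-base paired ends by the authors. The submitters' processing notes name FastQC 0.11.5, STAR 2.5.3a, featureCounts 1.5.3 and mm10, and the gene models were GENCODE M15. The deposited values are raw counts per gene and library without normalization. Whether counting used the strand is not given in the sources used here. A total of 0 columns belonged to other samples.

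Members and lists were chosen with earlier results of these data known. Groups came from the sample titles. Genes were kept with filterByExpr over 4 groups (minimum count 10, total 15), scaled with TMM and tested with the quasi-likelihood F test of edgeR 4.0.16 (limma 3.58.1, R 4.3.3) with 1 mean per group. P-values were adjusted by Benjamini-Hochberg over 16340 genes and called under 0.05. SE were obtained from the F statistic as log2 fold change over root F. Sex was tested with 8 groups. CPM use TMM library sizes. Promoters are those of RefSeq, and coding sequences are the longest open reading frames of GENCODE M21 transcripts, aligned with Biopython 1.88. Named genes were the members, their neighbours, the 5 most alike genes of *Slc38a1* and of *Slc38a2*, and up to 4 called genes per direction of each list. *Rragc* and the genes of lists that did not pass were added after their values were seen. The self-test on simulated counts was passed. Alternatives were DESeq2 1.42.0, other scalings, filters and models, each sex alone, and each mouse left out. DNA methylation data of the study were not used here.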

Additional observations from a re-analysis of the deposited data

Results flagged for a closer look

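In 6 of the 40 combinations of member and group, 1 mouse stood far from the rest by Dixon's test, of which chance gives about 1 in 20. *Slc38a2* was 312 CPM in mouse 9 (exercised WT male), against 161 to 226 in the other 6. *Slc38a3* was 144 CPM in mouse 22 (exercised WT), against 103 to 117, and 141 CPM in mouse 2 (rested mD3AKO), against 80.2 to 102. *Slc38a4* was 50.3 CPM in mouse 17 (exercised mD3AKO), against 33.6 to 39.8. *Slc7a8* was 5.32 CPM in mouse 25 (exercised WT), against 2.72 to 3.72. *Slc1a5* was 69.4 CPM in mouse 21 (rested mD3AKO), against 10.5 to 29.8, and the adipocyte markers of that mouse summed to 843 CPM.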

How the results depend on the processing

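The members called for exercise numbered 2 in females alone (*Slc3a2* and *Slc7a1*), 6 with DESeq2 (adding *Slc38a3* and *Slc7a5*), 3 with library totals, 5 with a term for sex (adding *Slc38a1*) or in males alone (adding *Slc38a3* and *Slc7a5*, without *Slc7a8*), and 4 in the other settings. With each mouse left out there were 4 to 6. The share of all genes called for exercise moved too, with 3.03% in females, 6.01% in males, 5.67% with library totals, 11.8% with DESeq2 and 11.9% with a term for sex, against 10.4%. The count for genotype was 0 in females alone and otherwise 1 (1 to 1 without each mouse), which is *Slc38a1*, chosen on this contrast, so that its calls are no sign of stability. Counts for the interaction and between the sexes were 0 in every fit. Response genes numbered 3 in females alone, 4 in males alone, 5 with library totals and 4 to 6 without each mouse, and other transporters 3 to 5 without each mouse.

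*Slc38a2*, *Slc7a1* and *Slc3a2* rose in every fit on both sexes, at log2 fold changes of 1.12 to 1.29, 0.45 to 0.53 and 0.45 to 0.50 without each mouse, while *Slc38a2* alone was not called in females (0.78, adjusted p of edgeR = 0.068) and *Slc7a8* in neither sex alone (0.48 in females and 0.39 in males). *Slc38a3* was called for exercise without mouse 2, 10 or 25, and *Slc7a5* without mouse 21 or 23. *Slc6a7* lost its call without any 1 of 15 mice and in 6 other settings, and *Chac1* and *Ddit3* without mouse 1. Among the settings that kept all mice or 1 sex, the highest adjusted p of edgeR was 0.17 for *Atf4*, 0.39 for *Cebpg*, 0.32 for *Chac1*, 0.36 for *Ddit3*, 0.28 for *Castor1*, 0.17 for *Fnip2* and 0.24 for *Rheb*. Signs turned only for uncalled values. For exercise these were *Slc38a4* in males (0.0664) and *Slc1a5* in females (-0.00765). For genotype they were *Slc38a3* by library totals (-0.0309) and in males (-0.0578), *Slc7a5* and *Slc7a8* in males (0.0144 and 0.0624), and *Slc3a2* by library totals (-0.00142) and in females (-0.0284). For the interaction they were, in males, *Slc38a2* (0.0453), *Slc38a3* (0.0238), *Slc7a2* (-0.0189), *Slc7a5* (0.29) and *Slc7a8* (0.37), in females *Slc3a2* (-0.0386), and *Slc7a2* by library totals (-0.00516) and with blocks of mouse numbers (-0.00823). Between the sexes they were *Slc7a1* (-0.0624) and *Slc7a8* (-0.0306) by library totals. With each mouse left out, the ranges that crossed 0 were *Slc38a3* (-0.0548 to 0.0379) and *Slc7a8* (-0.0752 to 0.0256) for genotype, *Slc7a2* (-0.0896 to 0.0879) and *Slc7a5* (-0.20 to 0.0194) for the interaction, and *Slc7a1* (-0.0103 to 0.0871) and *Slc1a5* (-0.31 to 0.11) between the sexes. The causes were not tested. Fits on 1 sex hold fewer mice. The correlation of *Slc1a5* within each sex was added after seeing the data. No paired analysis was possible because the mouse numbers 1 to 25 are unique and the groups share none. Runs of mouse numbers (1 to 6, 7 to 19 and 20 to 25) were instead fitted as blocks in an additive term. There 2044 of all genes were called for exercise (1699 without blocks) and 97 between the genotypes (44 without blocks), while 4 and 1 members were called in both. The run from 7 to 19 holds all the males and no females, so the blocks also carry sex. With a term for sex in place of blocks, 1946 genes were called for exercise and 72 between the genotypes. Counting error at the median count was 10.4% for *Slc7a8* and 7.93% for *Slc7a5*, the members with the fewest counts.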

Other observations

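Other amino acid transporters also varied with the fat cell markers, and were chosen after their values were seen. *Slc36a2*, a carrier of glycine and proline known from adipocytes, ranged from 0.49 to 12.6 CPM, with a Pearson r of 0.934 on the log2 scale with the summed adipocyte markers over the 25 mice. *Slc7a10* (Asc-1), known as a surface marker of white adipocytes, ranged from 0.14 to 5.57 CPM with an r of 0.912, and the glutamate carrier *Slc1a3* from 1.11 to 12.6 CPM with an r of 0.912. None of the 3 was called for exercise or between the genotypes. These correlations are a description over libraries that share the same dissections.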
